A study of Mus musculus with 6 samples.

Results

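Tip cells lead each sprout of a growing vessel. The genes described here are 9 that were grouped as tip cell genes: Esm1, Apln, Aplnr, Cxcr4, Pdgfb, Kcne3, Adm, Cd34 and Plaur. Whether each marks tip cells in these libraries was not tested. They were chosen by name, and all 9 were found among the 55487 genes of the deposited table. RNA was sequenced from retinal vascular endothelial cells (VECs) of mice at postnatal day (P) 7.5, in 3 libraries of Bmal1;CKO animals (Bmal1 FL/FL;tdTomato FL/+;Pdgf-icreER) and 3 of control animals (tdTomato FL/+;Pdgf-icreER). The comparison asks which transcripts differ when the clock gene Bmal1 is deleted from the endothelium. The study collected these retinas at noon, and no other time of day was sequenced. Tamoxifen was injected into both groups on P0.5 through P2.5, both carried the inducible Cre, and both were sorted for GFP from the Cre transgene together with tdTomato from the recombined reporter. The controls carried no floxed Bmal1, so the deletion and the floxed allele cannot be told apart. Control libraries bear the numbers 1 to 3 and Bmal1;CKO libraries the numbers 4 to 6, and 71145068 to 104017800 reads per library lay on genes. Values are normalized counts, that is reads divided by the size factor of the library.

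In the growing retina, vessels spread over the inner surface behind tip cells, which extend filopodia toward VEGF, while the stalk cells behind them form the tube. Tip cells make secreted signals, among them apelin (Apln), adrenomedullin (Adm), endocan (Esm1) and PDGF-B (Pdgfb), and carry surface proteins such as CXCR4 and CD34. Bmal1 is a transcription factor that pairs with Clock and binds the E-box CACGTG. Several tip cell genes are known to respond to hypoxia, through factors that bind ACGTG or GCGTG.

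These letters were searched on both strands of the RefSeq promoters (GRCm38.p6), from 250 bases before to 50 after the start, which were given for 7 of the 9 genes with 8 starts. CACGTG was in 0 of the 8 windows, and 7.15% of all 32851 promoters hold it. ACGTG or GCGTG, of which the former is part of CACGTG, was in 5 of the 8 windows and in 4 genes, Adm, Esm1, Cxcr4 and Kcne3, against 43.8% of all promoters. The 250 bases upstream of Adm and Apln are printed because these ligands had the lowest Bmal1;CKO to control ratios among the secreted members, and capitals mark the matches, which in Adm read CACGC on this strand. The matches in Adm begin 90 and 54 bases before the start, and Apln has none. A match is a description of the letters and not of a bound site. The windows are Adm at chr7:110627407-110627656 on the forward strand and Apln at chrX:48034854-48035103 on the reverse strand.
Adm: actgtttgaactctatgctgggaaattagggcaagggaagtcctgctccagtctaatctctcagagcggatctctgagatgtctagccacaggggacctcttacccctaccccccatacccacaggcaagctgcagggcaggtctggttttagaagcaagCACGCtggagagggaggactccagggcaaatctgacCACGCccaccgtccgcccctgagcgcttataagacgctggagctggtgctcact
Apln: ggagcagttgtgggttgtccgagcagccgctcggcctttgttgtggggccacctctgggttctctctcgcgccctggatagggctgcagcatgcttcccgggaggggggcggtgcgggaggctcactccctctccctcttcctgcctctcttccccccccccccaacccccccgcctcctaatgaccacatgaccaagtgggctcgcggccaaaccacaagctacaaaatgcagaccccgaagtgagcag

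None of the 9 genes differed between Bmal1;CKO and control at a false discovery rate (FDR) of 0.05 in limma-trend, the linear model fitted to log2(normalized count + 1) over 20459 genes, in which 0.0% of all genes were called. Their mean fitted direction was lower in Bmal1;CKO for 7 genes and higher for 2, Kcne3 and Plaur, and the median log2 fold change was -0.10 against 0.11 over all genes tested. At an unadjusted p under 0.05, 1 of the 9 passed, Adm, where 4.92% of all genes did, 1.75% in the lower and 3.17% in the higher direction. Adm was also the only gene of the 9 whose groups did not overlap, where 11.2% of all genes did not overlap, 4.54% with the lower and 6.62% with the higher values in Bmal1;CKO. The p-values measure the spread between libraries of 3 animals a genotype, and a two-sided exact permutation test of 3 libraries against 3 cannot go below 0.1.

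**Figure D1:**
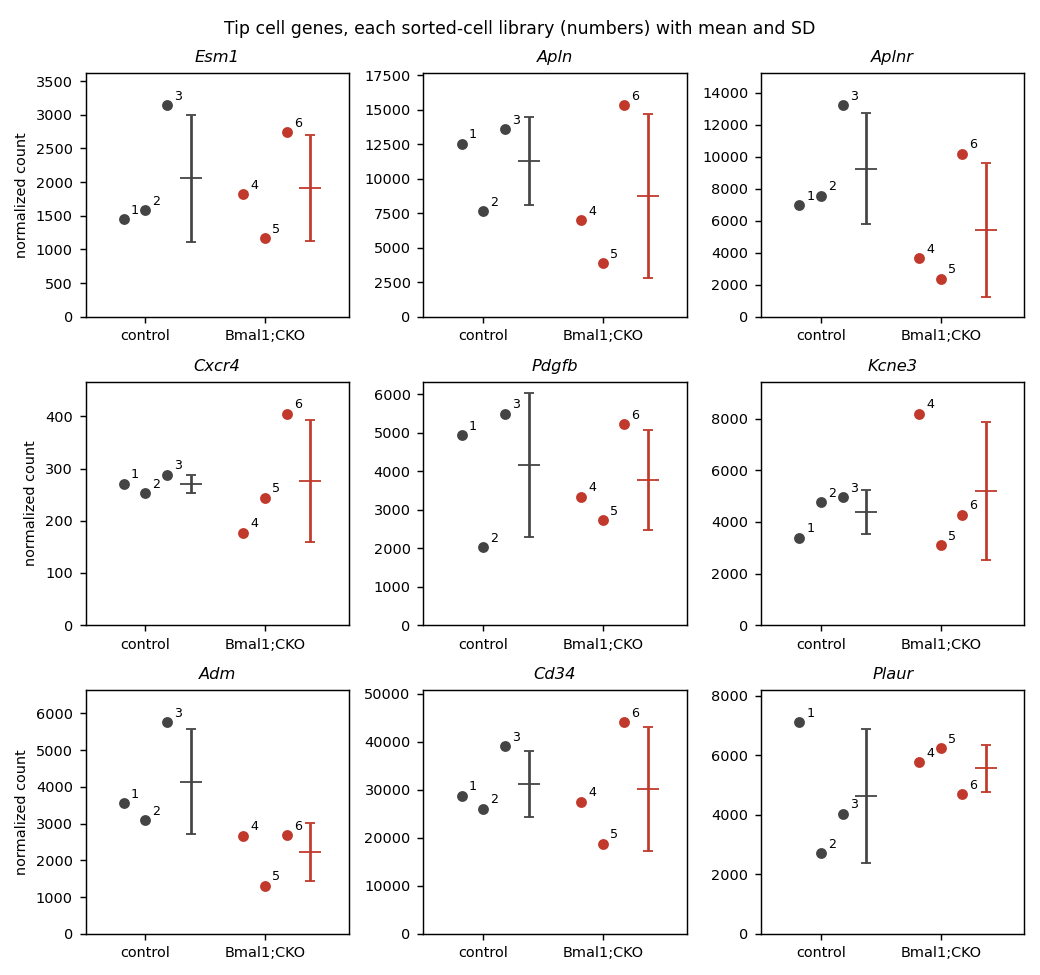
Normalized counts (y axis, from 0) of the 9 tip cell genes in control libraries 1 to 3 (grey) and Bmal1;CKO libraries 4 to 6 (red), with points for libraries and the bar for the mean and SD. Adm alone has groups that do not overlap, and Bmal1;CKO library 5 is the lowest point for 6 of the 9 genes.

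All 9 genes were well counted, from 126 reads of Cxcr4 in library 4 to 54657 reads of Cd34 in library 3. Per kilobase of exon, Cd34 was the most abundant, with a mean over the 6 libraries of 4211 normalized counts per kb, followed by Apln with 3174 and Kcne3 with 2688. Aplnr, Adm and Plaur had nearly the same mean level, 1982, 1965 and 1947 per kb. Pdgfb at 953 and Esm1 at 946 followed, and Cxcr4 was the lowest at 151 per kb. The ranges of neighbours in this order overlapped, apart from that of Cxcr4, which was below all other genes in every library.

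Apelin (Apln, ENSMUSG00000037010, chromosome X:48025146-48034853 of GRCm38, reverse strand) is the ligand of the receptor Aplnr. Apln had 12537, 7621 and 13589 normalized counts in control libraries 1 to 3 and 7007, 3882 and 15330 in Bmal1;CKO libraries 4 to 6. The groups overlapped, with the highest value of all in a Bmal1;CKO library, and the means were 11249 ± 3185 and 8739 ± 5917 (SD, n = 3 each). The log2 fold change was -0.55 (95% interval -1.71 to 0.62, limma-trend, adjusted p = 0.883). The exact permutation test gave p = 0.6. Without library 6, which held that highest value, the log2 fold change was -1.06 with an unadjusted p of 0.0364, and without library 5, which held the lowest, it was -0.074 with one of 0.875.

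Aplnr (ENSMUSG00000044338, chromosome 2:85136225-85139923, forward strand) is the G protein-coupled receptor for apelin. It had 6959, 7569 and 13243 normalized counts in control and 3658, 2383 and 10186 in Bmal1;CKO. Libraries 4 and 5 lay below every control, whereas library 6 lay above 2 of the 3 controls. The log2 fold change was -0.99 (95% interval -2.24 to 0.26, limma-trend, adjusted p = 0.883), and it ran from -1.59 without library 6 (unadjusted p = 0.00604) to -0.54 without library 5 (unadjusted p = 0.339). The spread between the highest and the lowest library, 5.56-fold, was the widest of the 9 genes. The ratio of ligand to receptor per kb was 2.12, 1.18 and 1.21 in control and 2.25, 1.91 and 1.77 in Bmal1;CKO, with overlapping groups (exact permutation p = 0.3). Apela, the other known ligand of this receptor, had a normalized count of 32.9 in library 3, of 1.41 in library 4 and 0 in the other four, and was too low to be tested.

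Adrenomedullin (Adm, ENSMUSG00000030790, chromosome 7:110627661-110629820, forward strand) is a vasoactive peptide that acts on the receptor Calcrl joined with Ramp2 or Ramp3. It had 3563, 3098 and 5767 normalized counts in control and 2668, 1309 and 2681 in Bmal1;CKO, so every Bmal1;CKO library was below every control. The means were 4143 ± 1426 and 2220 ± 788 (SD, n = 3 each). The log2 fold change was -0.92 (95% interval -1.83 to -0.0083, standard error 0.39, limma-trend, unadjusted p = 0.0484, adjusted p = 0.883). The exact permutation test gave p = 0.1, the smallest it can give. The fold change was -0.58 without library 5 and -0.66 without library 3, with unadjusted p-values of 0.173 and 0.149. Adm lies 2.58 Mb from Bmal1 on chromosome 7, and Kcne3 and Plaur, on the same chromosome, lie 13.02 and 88.73 Mb from it.

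The receptor side of adrenomedullin was measured too. Calcrl had 516, 231 and 118 normalized counts in control and 30.9, 57.9 and 75.8 in Bmal1;CKO, with groups that did not overlap (exact permutation p = 0.1). Over all genes, 4.54% did not overlap with the lower values in Bmal1;CKO. The log2 fold change of Calcrl was -2.21 (95% interval -4.21 to -0.20, limma-trend, unadjusted p = 0.0349, adjusted p = 0.883). With a library left out, the unadjusted p of Calcrl was 0.0555 to 0.0988 in 5 of 6 fits and 0.0197 without library 3. Relative to the endothelial markers its unadjusted p was 0.162 (log2 fold change -1.70, limma-trend). The groups of Calcrl did not overlap on that scale either (exact permutation p = 0.1). Over all genes, 0.513% did not overlap there with the lower values in Bmal1;CKO. Ramp2, which brings the receptor to the surface, had 51189, 23194 and 14095 in control and 20457, 8595 and 20451 in Bmal1;CKO, with overlap. Its log2 fold change was -0.74 (limma-trend, adjusted p = 0.883). Ramp3 had 2319, 1249 and 1292 in control and 1579, 1517 and 1116 in Bmal1;CKO, again with overlap. Its log2 fold change was -0.16 (limma-trend, adjusted p = 0.933). The ratio of Ramp2 to Calcrl per kb was 147, 148 and 177 in control and 978, 220 and 399 in Bmal1;CKO, without overlap (exact permutation p = 0.1). This ratio rests on 22, 67 and 92 reads of Calcrl in libraries 4 to 6 and is not separate from its low values. Several such ratios were computed, and no other was free of overlap.

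**Figure D2:**
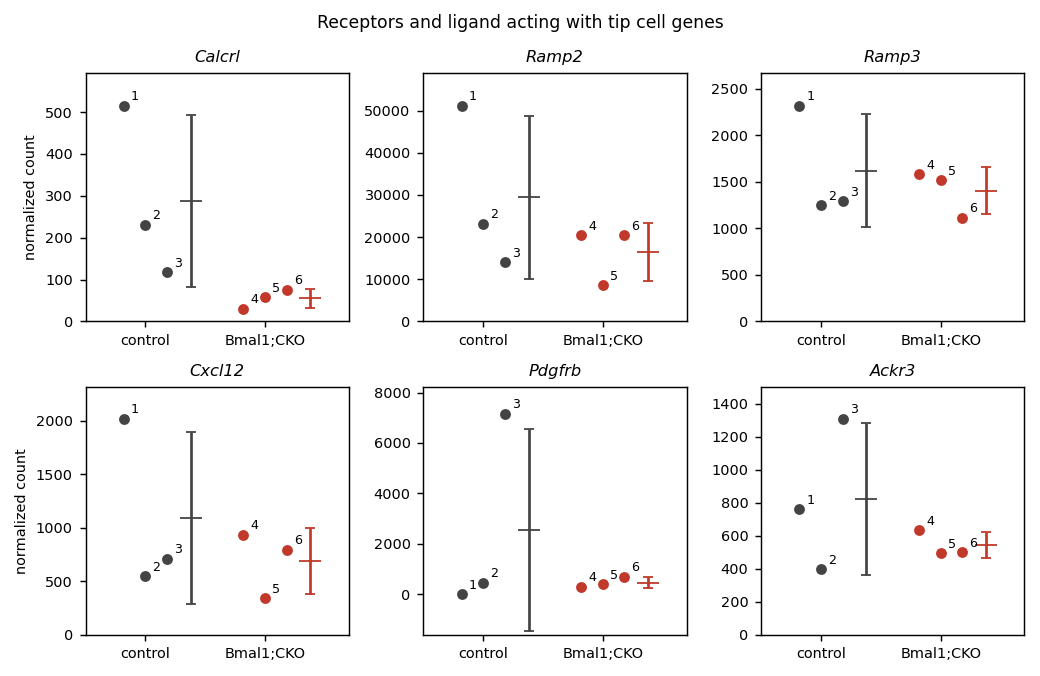
Normalized counts (y axis) of 6 receptors and ligands that act with the tip cell genes, in control (grey) and Bmal1;CKO (red) libraries, with points for libraries and the bar for the mean and SD. Calcrl was lower in all Bmal1;CKO libraries than in all controls, and Pdgfrb stands out in control library 3.

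Pdgfb (ENSMUSG00000000489, chromosome 15:79995874-80014977, reverse strand) encodes the ligand with which sprouts recruit pericytes. Both groups were sorted on GFP from the Pdgf-icreER transgene, and the part of that gate in the values of Pdgfb was not tested. Pdgfb had 4946, 2034 and 5504 normalized counts in control and 3340, 2733 and 5229 in Bmal1;CKO, so that the 2 groups covered nearly the same range. The log2 fold change was -0.071 (95% interval -1.11 to 0.96, limma-trend, adjusted p = 0.979). Its receptor Pdgfrb, a pericyte gene, had 6.15, 461 and 7164 in control and 295, 393 and 695 in Bmal1;CKO. The control libraries therefore held both the lowest and the highest value of the receptor. The geometric mean of 7 pericyte markers was 22.6, 505 and 3980 in control and 586, 373 and 571 in Bmal1;CKO, and their part in the values of Pdgfrb was not tested.

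Cxcr4 (ENSMUSG00000045382, chromosome 1:128588199-128592293, reverse strand) is the receptor of the chemokine Cxcl12. It had 271, 252 and 288 normalized counts in control and 177, 244 and 405 in Bmal1;CKO. The controls lay close together, with a coefficient of variation of 6.57% against 42.5% in Bmal1;CKO, and all 3 fell within the range of the mutants. The log2 fold change was -0.054 (95% interval -1.39 to 1.29, limma-trend, adjusted p = 0.989). Cxcl12 had 2017, 548 and 710 in control and 935, 339 and 793 in Bmal1;CKO. Ackr3, a second receptor that takes up the chemokine, had 760, 395 and 1307 in control and 631, 495 and 500 in Bmal1;CKO. Both overlapped between the groups, with log2 fold changes of -0.55 for Cxcl12 and -0.44 for Ackr3 (limma-trend, adjusted p = 0.888 and 0.892).

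Plaur (ENSMUSG00000046223, chromosome 7:24462484-24475968, forward strand) is the receptor of urokinase, which directs proteolysis to the cell surface. It had 7122, 2719 and 4043 normalized counts in control and 5768, 6235 and 4688 in Bmal1;CKO. Control library 1 was the highest of all, and the other 2 controls were the lowest. Plaur had a log2 fold change of 0.37 (95% interval -0.50 to 1.23, limma-trend, adjusted p = 0.884). Without library 1 it was 0.74 with an unadjusted p of 0.0367, and without library 2 it was 0.042 with one of 0.905. Plaur lay close to the 9 microglia markers over the 6 libraries. After centring, its root mean square distance from their mean profile was 0.143 on the log2 scale and 0.698 from that of the 14 endothelial markers, a measure chosen after the values were seen. By this measure Pdgfb was also nearest to the microglia markers, at 0.533 against 0.546 for the endothelial ones. Apln, Aplnr and Adm were nearest to the endothelial markers, Esm1, Kcne3 and Cd34 to those of Müller glia, and Cxcr4 to those of rods. Only 4 of the 5 Müller glia markers had 10 reads in every library, so their mean profile rests partly on low counts. Whether Plaur came from endothelial cells or microglia was not tested.

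The ligand of Plaur, urokinase (Plau), was low, with 20.9, 182 and 85.0 normalized counts in control and 95.6, 102 and 28.8 in Bmal1;CKO. Lrp1, an endocytic receptor that takes part in the turnover of Plaur, had 13630, 2298 and 6994 in control and 11633, 10879 and 10619 in Bmal1;CKO. The groups overlapped through library 1. The log2 fold change of Lrp1 was 0.87 (limma-trend, adjusted p = 0.883). Without library 1 it was 1.46 with an unadjusted p of 0.00854, and without library 2 it was 0.18 with one of 0.621. Relative to the endothelial markers it was 1.38 (limma-trend, unadjusted p = 0.0440, adjusted p = 0.883), where the median of all genes tested was 0.61.

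Esm1 (ENSMUSG00000042379, chromosome 13:113209659-113218098, forward strand) encodes endocan, a proteoglycan secreted by tip cells. It had 1449, 1579 and 3144 normalized counts in control and 1821, 1168 and 2736 in Bmal1;CKO, with overlap at both ends. Its log2 fold change was -0.10 (95% interval -1.13 to 0.93, limma-trend, adjusted p = 0.969). This interval covers folds from 0.455 to 1.91.

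Cd34 (ENSMUSG00000016494, chromosome 1:194938819-194961279, forward strand) encodes a sialomucin of the luminal surface and of filopodia. It had 28740, 26014 and 39053 normalized counts in control and 27517, 18785 and 44088 in Bmal1;CKO. The mutants thus held both the lowest and the highest value. On the log2 scale Cd34 differed by -0.12 (95% interval -0.96 to 0.72, limma-trend, adjusted p = 0.952). In GENCODE M21, 148 exon bases of Cd34 overlap the antisense gene Gm16897, and reads on these bases cannot be assigned to either gene here.

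Kcne3 (ENSMUSG00000035165, chromosome 7:100176502-100184869, forward strand) encodes an accessory subunit of potassium channels such as Kcnq1. It had 3396, 4764 and 4957 normalized counts in control and 8198, 3098 and 4279 in Bmal1;CKO. Library 4 was the highest and library 5 the lowest of all. Kcne3 had a log2 fold change of 0.15 (95% interval -0.76 to 1.05, limma-trend, adjusted p = 0.944). Kcnq1 had 936, 842 and 1768 in control and 1287, 561 and 1795 in Bmal1;CKO, which overlapped. Kcne3 shares 9 exon bases with the antisense gene Gm34821.

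The direction of 5 of the 9 genes, Esm1, Cxcr4, Pdgfb, Kcne3 and Cd34, changed when a single library was left out. Library 5 had the lowest value of 6 of the genes, Esm1, Apln, Aplnr, Kcne3, Adm and Cd34. That library also had the lowest geometric mean of 14 endothelial markers, 3226 normalized counts against 5755 to 12015 in the other libraries. All 14 endothelial markers were lower in Bmal1;CKO in the fit, with a median log2 fold change of -0.45, none at an unadjusted p under 0.05. Over all genes tested, 43.4% were lower and the median was 0.11. The geometric mean of the 14 markers was 12015, 6274 and 5755 in control and 5774, 3226 and 8136 in Bmal1;CKO, so the groups overlapped. The markers were read in the same 6 libraries, and their directions are not 14 separate observations. Fewer endothelial cells in a library and less of these transcripts per cell cannot be told apart in sorted bulk samples.

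Endothelial markers were present in every library, but 9 microglia markers had a geometric mean of 77267 to 188071 normalized counts, which was 12.3 to 42.6 times that of the endothelial markers. The endothelial list was thus not the most abundant of those measured. Geometric means were 27473 to 57454 for rod markers, 1168 to 2633 for Müller glia, 352 to 1764 for ganglion cells, 64.2 to 1675 for erythroid cells, 16.5 to 127 for astrocytes and 4.79 to 17.5 for border macrophages. The part of these cells in the values of the 9 genes was not tested. The transcript of Bmal1 itself, listed as Arntl, had 1700, 3489 and 2928 in control and 1779, 2747 and 2415 in Bmal1;CKO, which overlapped (exact permutation p = 0.5). The value is a sum over the gene, and the floxed part alone was not analysed here. With ddPCR on sorted endothelial cells of the same genotypes, the study reported significantly fewer Bmal1 copies in the mutant.

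The genes were then expressed relative to the mean of the 14 endothelial markers of each library. This scaling added the same amount to every log2 fold change and moved the median of all genes tested from 0.11 to 0.61. The values of the 9 genes are to be read against that shift, with 16906 of all 20459 genes above 0. Adm was then -0.42 (95% interval -1.73 to 0.90), Aplnr -0.49 and Apln -0.040. The other 6 genes were above 0, from 0.39 for Cd34 to 0.87 for Plaur, and the median of the 9 was 0.40. None of the 9 had groups that did not overlap, against 6.46% of all genes, 0.513% lower and 5.94% higher in Bmal1;CKO. None passed an FDR of 0.05 (0.00489% of all genes), and none reached an unadjusted p under 0.05 (3.53% of all genes). Relative to the endothelial markers, control library 1 was the lowest for 7 of the 9 genes and control library 3 the highest for 6. Single libraries turned the sign of Esm1, Apln, Aplnr and Adm on this scale. Adm, for example, went from -0.83 without library 1 to 0.047 without library 3.

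**Figure D3:**
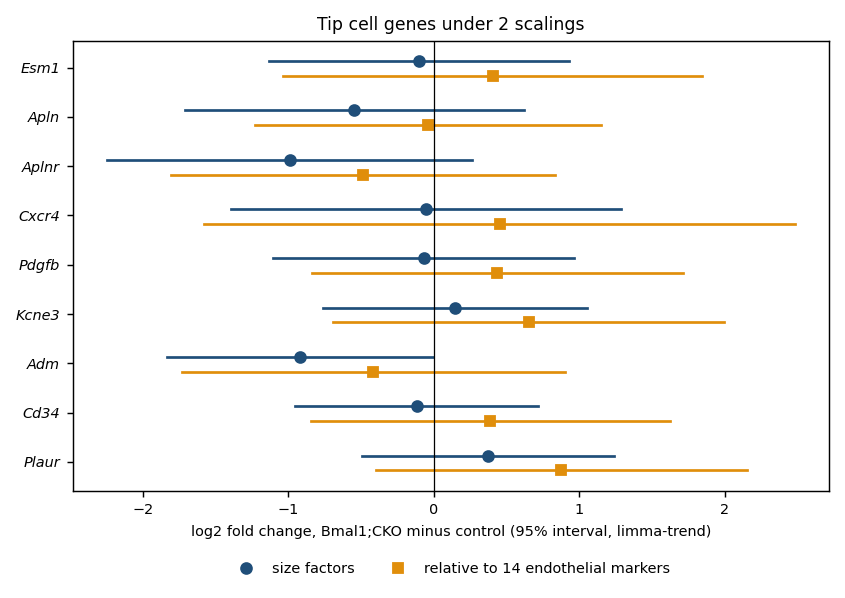
Log2 fold changes of Bmal1;CKO minus control (x axis) of the 9 tip cell genes, as points with 95% intervals from limma-trend, with size factors (blue) and relative to 14 endothelial markers (orange). All intervals contain 0 except that of Adm with size factors, which ends at -0.0083.

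The profiles of the 9 genes over the 6 libraries were of a few kinds. Esm1 and Cd34 lay nearest to each other, with a root mean square difference of 0.199 on the centred log2 scale. Apln and Aplnr differed by 0.368. For each gene the nearest genes outside the list were found by the same measure among 15037 genes. They were Tspan9 and Bmp1 for Esm1, Slc7a5 and Adcy4 for Apln, Pls3 and Msrb3 for Aplnr, and Vwf and Fstl1 for Adm. Bcam and Nanos1 lay nearest to Pdgfb, Nr2c2 and Slc25a22 to Cxcr4, Cnih2 and Rac3 to Kcne3, Fam53c and Zcchc4 to Cd34, and Ppm1h and Arid5a to Plaur. The differences ran from 0.0574 for Ppm1h to 0.214 for Msrb3. These are likenesses over 6 libraries that share depth and makeup, and are given without a test.

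**Figure D4:**
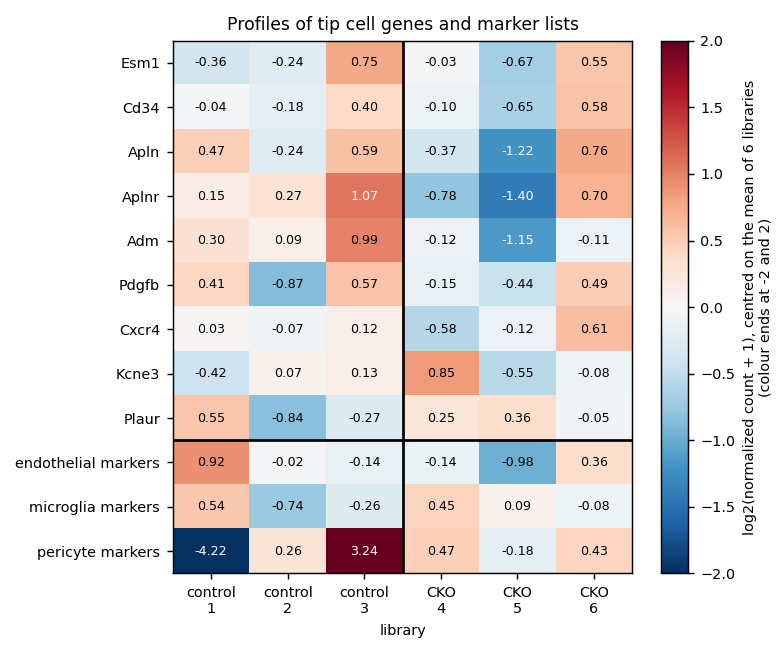
Centred log2(normalized count + 1) of the 9 tip cell genes and of the mean of 3 marker lists (rows) in 6 libraries (columns), with the number in each cell and colour that ends at -2 and 2. Library 5 is low for Apln, Aplnr and Adm and for the endothelial markers, and the row of Plaur follows the microglia markers.

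Lists of related genes were counted in the same fit, with 43.4% of all genes lower in Bmal1;CKO and a median of 0.11. Among 15 other tip cell genes, 12 were lower and 3 higher, with a median of -0.33 and none at an unadjusted p under 0.05. Relative to the endothelial markers, 10 were higher and 5 lower with a median of 0.18. Of all 20459 genes, 16906 were higher on that scale, with a median of 0.61. The scaling adds the same amount to every log2 fold change, so the turn is not a result about this list. With size factors, the list median was 0.011 without control library 3. Kdr, the main receptor of VEGF, had 19293, 11459 and 10214 normalized counts in control and 8826, 5126 and 10717 in Bmal1;CKO (log2 fold change -0.74, limma-trend, adjusted p = 0.883). Dll4, the Notch ligand of tip cells, had a log2 fold change of 0.096, and Angpt2, an antagonist of Tie2 signalling, of -0.069 (limma-trend, adjusted p = 0.971 and 0.981).

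Of 18 partners tested of the 19 listed, 11 were lower and 7 higher with a median of -0.053. Of these, 1 had an unadjusted p under 0.05, Calcrl, where 4.92% of all genes did. Of 7 stalk and vein genes tested of 8 listed, 4 were lower and 3 higher, with a median of -0.33. Notch1, the receptor that restrains tip cell fate, was the only one at an unadjusted p under 0.05, against the same share of all genes. It had 799, 1219 and 2084 normalized counts in control and 2398, 2316 and 3219 in Bmal1;CKO, without overlap (log2 fold change 1.05, limma-trend, unadjusted p = 0.0332, adjusted p = 0.883). Over all genes, 6.62% had groups that did not overlap in this direction. With a library left out, the unadjusted p of Notch1 was 0.0594 to 0.112 in 5 of 6 fits and 0.00583 without library 3. Of 10 hypoxia genes, 6 were lower and 4 higher, with a median of -0.12 and none at an unadjusted p under 0.05.

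**Figure D5:**
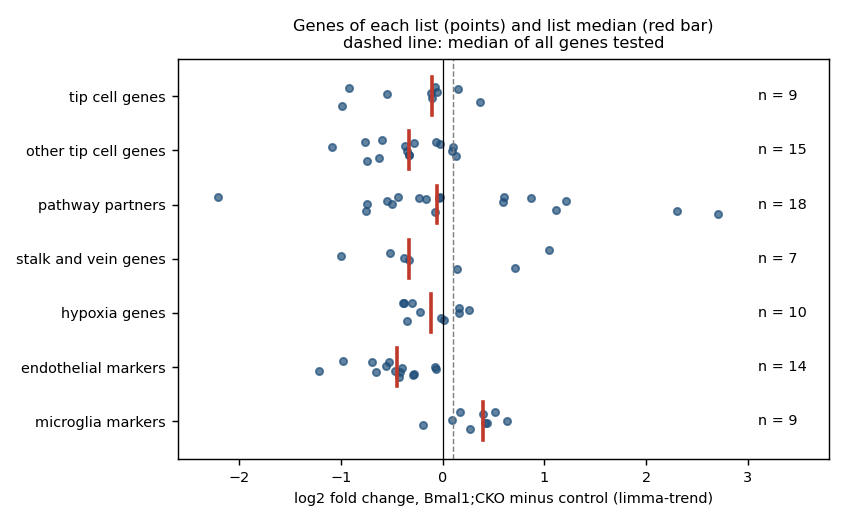
Log2 fold changes of Bmal1;CKO minus control (x axis) of the genes of 7 lists (rows), with points for genes, the red bar for the list median and the dashed line for the median of all genes tested, 0.11. The endothelial markers all lie below 0, and 8 of 9 microglia markers lie above it.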

How the data were processed

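Amplified RNA of sorted VECs (Smart v4) was sequenced as Nextera XT libraries. The submitters' processing notes name FastQC, Trimmomatic, featureCounts and DESeq2 and the builds GRCm38 and mm10, and the study's methods name Bowtie as the aligner. Whether counting used strand is not given in the sources used here. The authors deposited a signal per gene and library, the read count divided by the DESeq2 size factor. The table also holds the authors' mean, log2 fold change and p-values, which were not used.

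Division by the smallest step of a column recovered whole reads for 100% of the values (tolerance 0.1). Size factors were 0.711 to 1.40. Column numbers and library names in the labels disagree, so each column was used as a replicate of its genotype only. Genes counted at 10 reads or more in 3 or more libraries were tested with limma-trend (limma 3.58.1, R 4.3.3). The model was fitted to log2(normalized count + 1) on genotype alone, with Benjamini-Hochberg adjustment over 20459 genes. A fold change on this scale understates that of low genes. Single values were compared with two-sided exact permutation tests (scipy 1.17.1). Alternatives used edgeR 4.0.16 and DESeq2 1.42.0 on the recovered reads. The tests were run on simulated data, with a capped spread and planted changes much larger than those of the tip cell genes. That run cannot show how often changes of the size seen here would be found. Positions are from GENCODE M21 (55141 of 55487 identifiers matched), and promoters from RefSeq, GRCm38.p6.

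The 9 genes, the lists and the tests were chosen with earlier results of these data known. The genes named are the 9, list members with an unadjusted p under 0.05 or that act with one of the 9, and the 2 nearest profiles of each. Kdr, Dll4 and Angpt2 fall outside this rule and were named after their values were seen. One listed partner is not reported here.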

Additional observations from a re-analysis of the deposited data

How the results depend on the processing

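No gene of the 9 reached an FDR of 0.05 under any alternative, and the smallest adjusted p was 0.522. Of 135 planned values of the 9 genes, 118 kept their direction and 17 turned, and Apln, Aplnr, Adm and Plaur did not turn in any of these. The read filters cannot alter the fold change of a gene they keep. The other pseudocounts and log2 CPM moved the fold changes of the 9 genes only slightly. Those settings add to the count of kept directions without putting them to a test. Scaling to the endothelial markers added the same amount to every log2 fold change. By that shift the values turned to 0.40 for Esm1, 0.45 for Cxcr4, 0.43 for Pdgfb and 0.39 for Cd34. Cxcr4 was 0.037 with edgeR and TMM, 0.029 with edgeR and size factors and 0.030 with DESeq2. With each library left out, the ranges of those that turned were -0.40 to 0.25 for Esm1, -0.37 to 0.22 for Cxcr4, -0.52 to 0.19 for Pdgfb, -0.24 to 0.46 for Kcne3 and -0.44 to 0.18 for Cd34. For those that did not turn they were -1.06 to -0.074 for Apln, -1.59 to -0.54 for Aplnr, -1.10 to -0.58 for Adm and 0.042 to 0.74 for Plaur. Apln was -0.36 with both edgeR fits and with DESeq2. What lay behind the other differences between settings was not tested.

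Leaving out each library on the endothelial scale was added after seeing the data. It gave -0.14 to 0.95 for Esm1, -0.27 to 0.32 for Apln, -0.99 to 0.0017 for Aplnr, 0.12 to 0.78 for Cxcr4, 0.12 to 0.90 for Pdgfb, 0.15 to 1.04 for Kcne3, -0.83 to 0.047 for Adm, 0.0036 to 0.76 for Cd34 and 0.42 to 1.30 for Plaur. The genes at FDR 0.05 on that scale ran from 0 to 176 with a library left out, against 1 with all 6, and 176 was without control library 2.

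Over all genes, limma-trend called 0 at FDR 0.05 (1007 at an unadjusted p under 0.05). The count was 1 with genes of at least 1 read in total, 1 with at least 10 reads in every library, 67 with DESeq2 and 1 with the endothelial scaling, and 0 to 6 with a library left out, the 6 without control library 1. It was 0 in both edgeR fits, with both other pseudocounts and with log2 CPM. Against 0.61 over all genes tested, list medians on the endothelial scale were 0.45 for the partners and 0.39 for hypoxia genes. They were 0.18 for the other tip cell genes and 0.18 for stalk and vein genes. With size factors and a library left out, the hypoxia median ran from -0.29 to 0.032. That of the other tip cell genes ran from -0.64 to 0.011.

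Of the other genes named, Calcrl, Ramp2, Lrp1, Notch1 and Kdr kept their direction. Endothelial scaling, by the same shift of every gene, turned Ramp3 to 0.34, Ackr3 to 0.063, Plau to 0.43 and Angpt2 to 0.44. Pdgfrb was -2.48 with edgeR and TMM, -2.46 with edgeR and size factors and -2.46 with DESeq2. With at least 10 reads in every library Pdgfrb was left out. With each library left out, the ranges of those that turned were -0.32 to 0.13 for Ramp3, -0.92 to 0.017 for Cxcl12, -2.07 to 2.91 for Pdgfrb, -0.91 to 0.62 for Plau, -0.32 to 0.31 for Dll4 and -0.46 to 0.32 for Angpt2.

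No paired analysis was possible because the column numbers disagree with the library numbers of the labels, so no number pairs the samples. Cxcr4, with 126 to 492 reads per library, was the least precisely counted of the 9 genes.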
